A study of Mus musculus with 36 samples.

Results

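DCs that cannot sense type I IFN, taken from the spleen 4 h after poly IC, were set against unstimulated spleen DCs, using every array whose title gives either group. These were 14 of the 36 arrays of the series, 5 of IFNAR-/- DCs and 9 of unstimulated DCs. Cells were CD11chi CD3- DX5- B220- DCs, and the IFNAR-/- cells lack the receptor for type I IFN. The study lists C57BL/6 mice and states no strain background for its IFNAR-/- mice. Mice aged 7 to 8 weeks had received 50 µg of poly IC, a synthetic double-stranded RNA, into the peritoneum. They were mixed chimeras, made with WT marrow beside knockout marrow, so the IFNAR-/- DCs sat in a spleen whose WT cells could make and sense IFN. DCs of knockout origin were sorted by CD45.2, and 1 legend gives 6 mice per pooled sample. The labels of the unstimulated samples give no genotype, and the study describes more than 1 kind of negative control, pooled for its comparisons. One kind came from chimeras given PBS, and another from mice lacking MDA5 and TLR3 that had received poly IC. The labels give no treatment for any unstimulated sample, and whether samples of both kinds are among them cannot be told. None is labelled IFNAR-/-, so in a difference from them poly IC and the genotype cannot be told apart. The study reports no significant change between WT and knockout DCs without poly IC. The labels do not allow this to be checked here. WT and PRR-/- DCs (PRR-/- DCs lack MDA5 and TLR3, the receptors for poly IC) taken 4 h after poly IC, and IFNAR-/- DCs taken after 14 h, served for comparison. In the IFNAR-/- 4 h, PRR-/- 4 h and unstimulated groups, arrays 1 and 2 were nearly repeats of each other and were averaged as sample 1-2. This left 4 IFNAR-/- samples at 4 h and 8 unstimulated samples, beside 8 WT and 4 PRR-/- samples at 4 h and 3 IFNAR-/- samples at 14 h.

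Type I IFN signals through IFNAR, a receptor of the chains IFNAR1 and IFNAR2, to transcription factors that drive antiviral genes through a promoter element called the ISRE. Poly IC is sensed by TLR3 in endosomes and by MDA5 in the cytosol, which lead to NFκB and to IRF3. A cell without IFNAR can still sense poly IC itself and can respond to other cytokines released in the same mouse, such as TNF, IL-6 or IL-10, through NFκB, STAT3 or STAT5. DCs respond to such signals by raising costimulatory molecules, chemokines and migration receptors.

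Levels are log2 bead signals, quantile normalized over all arrays, and 6.49 is the lowest value they can take, which marks a signal at array background. A gene was called where limma, run on the 33 samples of all groups together, gave an adjusted p below 0.05 and a change of 2-fold or more. Since the labels do not say which samples came from separate sorts, the p-values rest on sample-to-sample spread that could be technical. On the 14 arrays 43.4% to 46.3% of probes were detected. The probe of Ifnar1 was detected on none of these arrays and is no check of the genotype. Ifnar2, the other receptor chain, was at 7.64, 7.29, 7.48 and 7.22 in IFNAR-/- samples 1-2, 3, 4 and 5, against 7.40 to 7.90 (median 7.70) in unstimulated samples (difference -0.28 ± 0.10 SE, adjusted p = 0.0636). Ifnb1, the IFN-β gene, was at 6.75, 7.02, 7.65 and 6.56 in IFNAR-/- DCs, against 10.37 to 11.93 in WT DCs at 4 h and 6.49 in every unstimulated sample. No type I IFN gene was called among 11 measured, and Ifnb1 differed from unstimulated DCs by 0.50 ± 0.30 (adjusted p = 0.298). With a background estimated by neqc, the call changed for Ifnb1 (1.62). The DC genes Zbtb46, a transcription factor of classical DCs, and Itgax, which encodes CD11c, averaged 9.32 and 8.57 in IFNAR-/- DCs, against 9.55 and 8.78 in unstimulated DCs. Of 13 pan-DC genes on the array, 12 were detected in IFNAR-/- DCs, Flt3 being the exception. Of 12 measured pan-DC genes, Id2 was called higher (1.05) and Bcl11a lower (-1.32). The call of Id2 was lost under 19 of 30 alternatives, among them median scaling and the sample number as a block. In such a block unstimulated samples 6 to 9 carry no weight, as no IFNAR-/- sample has their numbers.

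Of 9606 genes tested, 284 (2.96%) were called: 147 (1.53%) were higher and 137 (1.43%) lower in IFNAR-/- DCs. The rises were the larger changes. They had a median log2 change of 1.40, and 30 reached 4-fold, while the falls had a median of -1.21 and 3 (Klra17, Hebp1 and Ypel3) reached 4-fold. The median change over all genes was -0.00. Genes that rose were dimmer in unstimulated DCs (median log2 level 8.25) than genes that fell (9.92), and the median of all genes there was 7.73. The IFNAR-/- samples lay above every unstimulated sample for 121 of the 147 rises (4.27% of all genes did so) and below every one for 118 of the 137 falls (6.35%). Within the sample numbers that both groups carry, all 4 differences had the sign of the call for 145 rises and for all 137 falls. The 2 exceptions were Nr4a3, a nuclear receptor gene, and Fkbp5, a glucocorticoid-induced chaperone gene. The calls came from these same samples, so neither the shared signs nor the lack of overlap is separate support for them. The call of Fkbp5 was lost with the sample number as a block (0.77) and without IFNAR-/- sample 3 or 4 or unstimulated sample 6, 7, 8 or 9 (0.85 to 0.996). The split between rises and falls depended on the scaling: with arrays brought to 1 median, 107 genes were called higher and 223 lower (32.4% higher, against 51.8%), and the median of all genes then lay at -0.08.

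**Figure D1:**
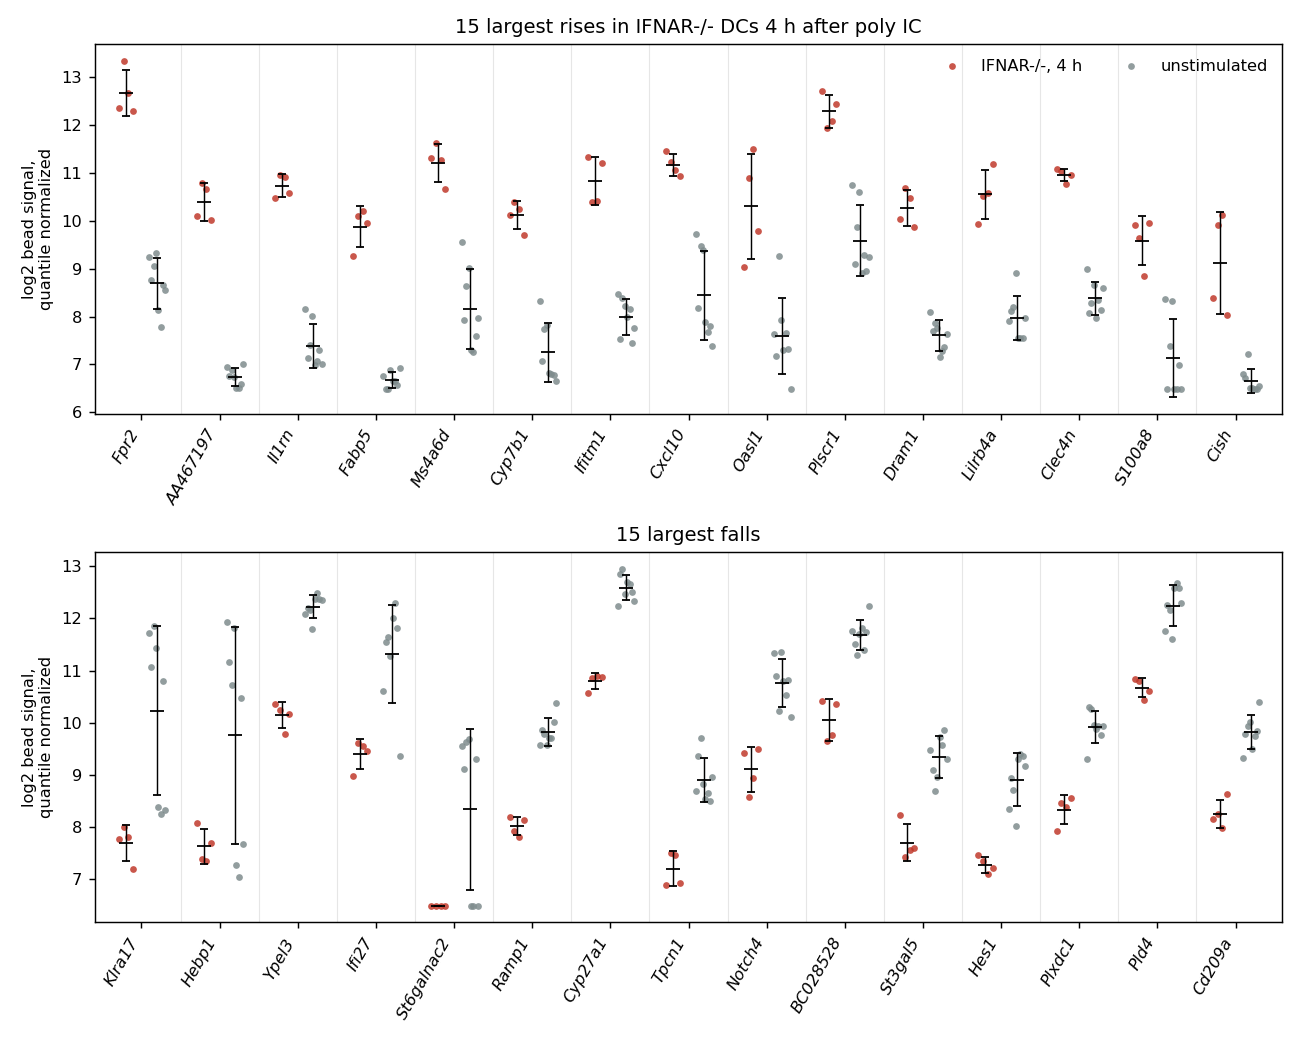
Log2 bead signal (vertical axis) of the 15 genes that rose most (upper panel) and the 15 that fell most (lower panel) in the 4 IFNAR-/- samples 4 h after poly IC, drawn left of the 8 unstimulated samples. Points are samples, and bars give the mean ± SD. Fpr2 lies at 12.30 to 13.35 in IFNAR-/- DCs, above all unstimulated samples, and the unstimulated points of Klra17, Hebp1 and St6galnac2 fall into 2 ranges.

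Fpr2, a receptor for formylated bacterial peptides and for several inflammatory ligands, changed most. It was at 12.35, 13.35, 12.68 and 12.30 in IFNAR-/- DCs, against 7.79 to 9.34 (median 8.71) in unstimulated DCs, a 15.7-fold rise (3.98 ± 0.33 SE, adjusted p = 9.65e-10). Next came AA467197, which encodes a small mitochondrial protein and was at 10.10, 10.79, 10.67 and 10.01 in IFNAR-/- DCs, against 6.50 to 7.00 (median 6.74). The lowest IFNAR-/- sample of either gene stood well clear of the highest unstimulated one. Il1rn, the IL-1 receptor antagonist, was at 10.48, 10.96, 10.93 and 10.58 in IFNAR-/- DCs, against 6.99 to 8.15 (median 7.22), a 10.2-fold rise. Fabp5, a cytosolic carrier of fatty acids, rose 9.21-fold. Ms4a6d, of the MS4A membrane protein family, rose by 3.06 ± 0.37, and Cyp7b1, an oxysterol hydroxylase, by 2.87 ± 0.28. Plscr1, a phospholipid scramblase also known as IFN-inducible, was at 12.71, 11.95, 12.09 and 12.44 in IFNAR-/- DCs, against 8.91 to 10.75 (median 9.26), and the autophagy regulator Dram1 was at 10.03, 10.69, 10.48 and 9.88, against 7.16 to 8.09 (median 7.67). Neither overlapped the unstimulated range.

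Some genes listed as responding to STAT3 and STAT5 were among the larger rises. Of 28 measured genes of the STAT3 and STAT5 cytokine response, 7 rose, none fell and 21 were not called. Over all genes, 1.53% rose and 1.43% fell. The median log2 change was 0.61 over the list, against -0.00 over all genes. This list and those below were chosen with earlier results of these data known, and the activity of STAT3 or STAT5 was not tested. Socs3, the feedback inhibitor that STAT3 induces, was at 12.31, 13.16, 13.02 and 12.52 in IFNAR-/- DCs, against 9.64 to 10.65 (median 10.40) in unstimulated DCs (2.44 ± 0.17, adjusted p = 1.52e-11). Cish, the related inhibitor that STAT5 induces, was at 8.38, 9.92, 10.13 and 8.03 in IFNAR-/- DCs, against 6.49 to 7.21 (median 6.53), with samples 3 and 4 above samples 1-2 and 5. Bcl3, an atypical IκB protein that binds NFκB subunits, was at 9.38, 9.76, 10.04 and 9.62, against 7.46 to 8.03 (median 7.75), so the groups lay far apart (1.95 ± 0.14). The tyrosine kinase gene Jak3, which serves receptors of the common γ chain, rose by 1.11 ± 0.16, and the IL-21 receptor gene Il21r by 1.11 ± 0.26. Stat5a itself, named after its values were seen, rose by 1.10 ± 0.17. The call of Il21r was lost with the sample number as a block (0.82) and without IFNAR-/- sample 1-2 or 5 (0.97 to 0.99), and that of Jak3 with median scaling (0.90). With the mean of all probes, neither Il21r (0.80) nor Jak3 (0.98) was called.

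Most measured acute phase and inflammation genes rose: 11 of 16, with none lower and a median of 1.90, where 1.53% of all genes rose. As the list was chosen with earlier results of these data known, its share is no separate support. This list holds genes that the STAT3 and NFκB pathways induce in many myeloid cells. Hp, which encodes haptoglobin, was at 9.50, 10.14, 9.08 and 9.10 in IFNAR-/- DCs, against 6.67 to 7.57 (median 6.92) in unstimulated DCs. The C-type lectin genes Clec4e (Mincle), Clec4d and Clec4n (Dectin-2), whose products bind glycolipids and glycans of microbes, rose together. Clec4e was at 9.82, 9.49, 9.14 and 8.87 in IFNAR-/- DCs, against 6.86 to 7.50 (median 6.96), and Clec4d at 8.56, 9.22, 8.97 and 8.83, against 6.49 to 7.07 (median 6.54). Cd14, the coreceptor for endotoxin, was at 9.98, 11.26, 10.45 and 9.99 in IFNAR-/- DCs, against 7.64 to 9.43 (median 8.44), without overlap. Its call was lost with the sample number as a block (1.22, adjusted p = 0.137). S100a8, a calcium-binding alarmin, was at 9.92, 9.64, 8.84 and 9.96 in IFNAR-/- DCs, against 6.49 to 8.37 (median 6.74), and its partner S100a9 at 8.18, 8.07, 7.53 and 8.99, against 6.49 to 7.55 (median 6.50). S100a9 overlapped the unstimulated range, and its call was lost without IFNAR-/- sample 3 or 5 (1.19 to 1.5). With unstimulated samples 1-2 to 5 alone, chosen after the values were seen, neither S100a8 (1.95) nor S100a9 (1.22) was called.

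S100a8, S100a9 and Hp are also neutrophil genes. Of 14 measured neutrophil markers, these 3 rose and the gelatinase gene Mmp9 fell by 1.28. The summed signal of the list was 7714 to 10854 units in IFNAR-/- samples, against 3295 to 12066 units in unstimulated samples. The granule genes Mpo and Prtn3, the chemokine receptor gene Cxcr2 and also Mmp8, Cd177, Stfa1 and Stfa2 were detected on no IFNAR-/- array (7 of 21 markers on the array), against 10 of 21 undetected on every unstimulated array, which included all of these but Cd177. Camp, Ngp, Lcn2 and Chil3 were detected on 2, 1, 4 and 5 IFNAR-/- arrays and on no unstimulated array, so that detection of neutrophil markers was higher in IFNAR-/- DCs, where S100a8, S100a9 and Hp rose. These 4 genes averaged 6.52, 6.55, 6.82 and 6.79 in IFNAR-/- DCs, against 6.49 for each in unstimulated DCs, and none was called. The part of neutrophil RNA in the acute phase rises was not tested. Of 12 measured monocyte markers, 1 (Cd14) rose, and their summed signal was 33115 to 41296 units in IFNAR-/- samples, against 33490 to 53313 units. In bulk samples, fewer cells of a type and less RNA per cell cannot be told apart.

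Chemokine and antiviral genes divided into those that rose and a majority that did not pass the test. Of 17 measured chemokine genes, 4 rose and none fell (median 0.20). Cxcl10, a ligand of CXCR3 that draws T and NK cells, was at 11.47, 11.22, 11.07 and 10.93 in IFNAR-/- DCs, against 7.39 to 9.72 (median 8.03) in unstimulated DCs, a 6.64-fold rise (2.73 ± 0.38, adjusted p = 5.61e-06). Cxcl9, the other CXCR3 ligand that IFN-γ classically induces, was at 14.29, 14.01, 14.13 and 13.92, against 11.76 to 13.33 (median 12.32). Both rose in every IFNAR-/- sample beyond the unstimulated range. Cxcl2, which draws neutrophils, was at 9.31, 9.27, 8.68 and 8.98, against 6.49 to 7.72 (median 6.70). Ccl17, a ligand of CCR4, was at 7.33, 10.14, 9.46 and 7.79, against 6.49 to 6.57, and with the sample number as a block its call was lost (2.17, adjusted p = 0.0877). Its level thus varied more between IFNAR-/- samples than that of the other chemokines.

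Of 41 measured antiviral IFN-stimulated genes, 6 rose, none fell and the median was -0.01. Ifitm1, of the family of membrane proteins that restrict virus entry, was at 11.33, 10.39, 10.43 and 11.22 in IFNAR-/- DCs, against 7.45 to 8.48 (median 8.07), and it rose most (2.85 ± 0.27). Oasl1, of the oligoadenylate synthetase family, was at 9.03, 10.89, 11.50 and 9.80, against 6.49 to 9.26 (median 7.48), so that sample 1-2 overlapped the unstimulated range. Gbp2, a guanylate-binding GTPase of cell-autonomous defence, was at 11.73, 12.49, 11.88 and 11.49, against 9.43 to 10.07 (median 9.78), and its relative Gbp5 at 8.19, 9.28, 9.25 and 8.47, against 6.51 to 7.11 (median 6.83). Igtp, an immunity-related GTPase that IFN-γ also induces, rose by 1.23 ± 0.20 and was no longer called with the sample number as a block (1.20, adjusted p = 0.0653) or with median scaling (1.00). Ifi47, of the same GTPase family, rose by 1.13 ± 0.39. Its call was lost with the block (0.87) and without any 1 of IFNAR-/- samples 3, 4 and 5 or unstimulated samples 1-2, 3, 6, 8 and 9 (0.91 to 1.12). Isg15, a ubiquitin-like modifier and a common marker of type I IFN, averaged 10.01 in IFNAR-/- DCs, against 9.48 in unstimulated DCs, and did not pass the test (0.53 ± 0.37, adjusted p = 0.389).

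Promoters of 4 genes are printed because they set rises that stayed far below WT DCs (Cxcl10 and Gbp2) beside rises that lay close to them (Cxcl2 and Fpr2). No promoter of a gene that rose above WT DCs is shown. Each run is the 250 bases before the start site in RefSeq's annotation of GRCm38.p6, in the direction of transcription. Capitals mark matches, on either strand, to an ISRE-like motif (GAAA and GAAA with 2 bases between them), a κB-like motif (GGGA and TTCC with 2 bases between them), an AP-1-like motif (TGANTCA) or a STAT-like motif (TTCNNNGAA).
Cxcl10: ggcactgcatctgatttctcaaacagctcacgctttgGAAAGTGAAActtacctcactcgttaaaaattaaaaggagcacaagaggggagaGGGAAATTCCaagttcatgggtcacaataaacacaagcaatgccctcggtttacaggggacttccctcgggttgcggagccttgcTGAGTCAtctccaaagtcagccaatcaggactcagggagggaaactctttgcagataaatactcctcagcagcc
Gbp2: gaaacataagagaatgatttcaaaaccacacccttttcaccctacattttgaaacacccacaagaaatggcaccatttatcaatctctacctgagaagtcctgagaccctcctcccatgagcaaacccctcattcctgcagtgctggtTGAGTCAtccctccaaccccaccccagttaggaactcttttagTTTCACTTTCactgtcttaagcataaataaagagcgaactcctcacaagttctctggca
Cxcl2: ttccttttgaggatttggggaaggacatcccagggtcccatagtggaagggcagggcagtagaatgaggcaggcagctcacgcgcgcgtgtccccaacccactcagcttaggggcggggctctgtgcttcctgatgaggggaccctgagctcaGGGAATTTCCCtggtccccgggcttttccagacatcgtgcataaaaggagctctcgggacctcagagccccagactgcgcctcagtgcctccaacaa
Fpr2: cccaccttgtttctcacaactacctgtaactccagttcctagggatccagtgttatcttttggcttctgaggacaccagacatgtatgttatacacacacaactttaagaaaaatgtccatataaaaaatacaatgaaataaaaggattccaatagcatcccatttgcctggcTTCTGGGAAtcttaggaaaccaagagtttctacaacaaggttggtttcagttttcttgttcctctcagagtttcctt
The Cxcl10 promoter (chr5:92348890-92349139, minus strand) held an ISRE-like match 213 bases, a κB-like match 159 bases and an AP-1-like match 74 bases before the start. The Gbp2 promoter (chr3:142620413-142620662, plus strand) held an AP-1-like match 102 bases and an ISRE-like match 59 bases before it, the ISRE-like one on the opposite strand. In Cxcl2 (chr5:90903649-90903898, plus strand) overlapping κB-like matches began 97 and 96 bases before the start, and in Fpr2 (chr17:17887574-17887823, plus strand) a STAT-like match began 77 bases before it.

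Of the 147 genes that rose, 120 had a promoter in the table, and 13 of these (10.8%) held the STAT-like motif, among them Socs3, Fas and Plscr1. The share was 4 of 106 (3.77%) among genes that fell (Bcl11a, Irf8, Dbp and Emp1), 6.2% among the 7865 genes tested that had a promoter and 7.18% among all 27025 promoters listed. The ISRE-like motif was in 6 promoters of genes that rose (5%), in 3 of genes that fell (2.83%: BC147527, Phf11a and Rnase6), in 3.09% of genes tested and in 3.04% of all promoters. Of the 6, those of Cxcl10, Gbp2, Gbp5 and Igtp belong to genes that rose but were lower than in WT DCs (4 of 15, 26.7%). No promoter of 14 genes that rose and were higher than in WT DCs held it. The AP-1-like motif divided in the same way (4 of 15, 26.7%, and 0 of 14), and the κB-like motif was in 2 of 15 (13.3%) and 0 of 14, so this split was not particular to the ISRE-like motif. The STAT-like motif was in 2 of 15 (13.3%) and 2 of 14 (14.3%). The κB-like motif was in 4 promoters of genes that rose (3.33%: Cxcl10, Cxcl2, Gbp5 and Tmem63b) and in 2 of genes that fell (1.89%). It was in 1.17% of genes tested and 1.17% of all promoters. The AP-1-like motif was in 10 promoters of genes that rose (8.33%), in 7 of genes that fell (6.6%), in 4.86% of genes tested and in 6.87% of all promoters. A match is a string of letters and no evidence of binding.

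Costimulation and maturation genes rose in part: 6 of 24 measured, with none lower and a median of 0.72. Cd40, the receptor through which T cells license DCs, was at 13.08, 13.04, 13.16 and 12.79 in IFNAR-/- DCs, against 11.30 to 11.71 (median 11.41) in unstimulated DCs (1.55 ± 0.16, adjusted p = 3.4e-08), with no overlap. Fscn1, an actin-bundling protein of mature DCs, was at 10.22, 11.21, 11.11 and 9.91, against 8.49 to 9.52 (median 9.04). Slamf1, a receptor that binds itself on neighbouring cells, was at 7.74, 7.98, 8.22 and 7.75, while it was detected on none of the unstimulated arrays, so that it rose at least 2.70-fold. The ligand of PD-1, Cd274, rose by 1.09 ± 0.19, the migration receptor gene Ccr7 by 1.03 ± 0.31 and the transcription factor gene Bhlhe40 by 1.08 ± 0.30. Cd86, a ligand of CD28 and named after its values were seen, averaged 13.26 in IFNAR-/- DCs, against 12.40 in unstimulated DCs, and its change of 0.86 ± 0.24 stayed under 2-fold. With the sample number as a block, the calls of Fscn1 (1.83, adjusted p = 0.0575), Cd274 (0.93), Ccr7 (0.93) and Bhlhe40 (0.57) were lost, and with the mean of all probes that of Slamf1 (0.93). Leaving out 1 sample ended the call of Cd274 (unstimulated sample 9, 1.00), of Bhlhe40 (IFNAR-/- sample 4 or unstimulated sample 6 or 8, 0.94 to 0.99) and of Ccr7 (IFNAR-/- sample 4 or 5 or unstimulated sample 1-2, 6 or 8, 0.82 to 0.99).

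NFκB and TNF signalling genes had a like median (0.59) with few calls, 3 of 28 and none lower. Beside Bcl3, these were Tnfaip2, a TNF-induced gene, at 11.07, 11.75, 11.48 and 10.65 in IFNAR-/- DCs, against 9.18 to 10.51 (median 9.66), and Nfkb2, which encodes the p100 precursor, at 8.90, 10.16, 10.38 and 10.31, against 8.09 to 9.38 (median 8.84). IFNAR-/- sample 1-2 was the low one for Nfkb2 and lay within the unstimulated range. Both calls were lost with the block (Tnfaip2 1.08, Nfkb2 0.98), and that of Nfkb2 also without IFNAR-/- sample 3, 4 or 5 or unstimulated sample 1-2 (0.93 to 1.01). Ikbke, which encodes the kinase IKKε that activates IRF3, was at 7.55, 8.70, 8.32 and 7.68, against 6.56 to 6.77 (median 6.67), with no overlap.

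Of 17 measured genes of oxidative stress and metal response, 5 rose, 1 fell and 11 were not called, with a median of 0.19. Mt1, a zinc-binding metallothionein, was at 13.50, 13.03, 13.30 and 13.12 in IFNAR-/- DCs, against 10.32 to 11.89 (median 11.13) in unstimulated DCs. Hmox1, which degrades heme, was at 8.81, 10.20, 9.43 and 9.05, against 6.92 to 8.12 (median 7.49), also without overlap. Sod2, the mitochondrial superoxide dismutase, rose by 1.27 ± 0.28, Slc7a11, the cystine importer, by 1.21 ± 0.14 and Txnrd1, a thioredoxin reductase, by 1.16 ± 0.31, while catalase (Cat) fell by 1.16. Txnrd1 was no longer called with the block (0.88) or without IFNAR-/- sample 4 or 5 (0.91 to 0.95), and Cat was no longer called with the block (-0.98). Of 19 genes of the BCL2 family, caspases and death receptors, 3 rose and 1 fell. The death receptor gene Fas was at 10.09, 10.20, 10.34 and 9.96 in IFNAR-/- DCs, against 7.94 to 9.04 (median 8.29), and Bcl2l11, which encodes the pro-apoptotic protein BIM, at 10.82, 10.20, 10.62 and 10.43, against 8.09 to 9.10 (median 8.32). Casp4, the caspase that senses cytosolic endotoxin, rose by 1.44 ± 0.23, and Casp2 fell by 1.14. The cyclin gene Ccnd2 was the only 1 of 31 cell cycle genes called, at 10.45, 11.40, 11.58 and 10.34, against 8.27 to 9.31 (median 8.56).

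Levels of IFNAR-/- DCs at 4 h were tested against those of WT DCs at 4 h, with 4 against 8 samples. This compares their changes only if both began at the same level, which the labels do not allow to be checked. Of the 147 rises, 107 were not called in this comparison, 20 were lower and 20 higher in IFNAR-/- DCs, where 4.62% of all genes were called, 3.80% lower and 0.822% higher. For 37 of the 107 the 2 genotypes lay within 0.25 log2 units of each other. How many of all genes lay that close was not counted. The median change of the 147 genes was 1.40 in IFNAR-/- DCs and 1.34 in WT DCs, both against the same unstimulated samples. The genes were chosen as high in the IFNAR-/- samples, which can enlarge the first median more than the second. Fpr2 was at 12.30 to 13.35 in IFNAR-/- DCs, against 11.30 to 13.16 (median 12.61) in WT DCs (difference 0.22 ± 0.33, adjusted p = 0.728), and it was at 12.94 to 13.57 in PRR-/- DCs. Dram1 was at 9.88 to 10.69 in IFNAR-/- DCs, against 9.64 to 10.72 in WT DCs (difference -0.04 ± 0.19), Clec4e at 8.87 to 9.82, against 7.85 to 10.62 (-0.01 ± 0.34), and Cxcl2 at 8.68 to 9.31, against 7.60 to 10.19 (0.04 ± 0.36). For these genes the IFNAR-/- range lay largely within that of WT DCs. Ly75, the endocytic receptor DEC-205, was at 9.96, 9.17, 9.46 and 10.02 in IFNAR-/- DCs, against 9.18 to 10.10 (median 9.59) in WT DCs and 7.17 to 8.54 (median 7.58) in unstimulated DCs. Cish differed from WT DCs by -0.14 ± 0.34 and Bcl2l11 by -0.25 ± 0.24.

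**Figure D2:**
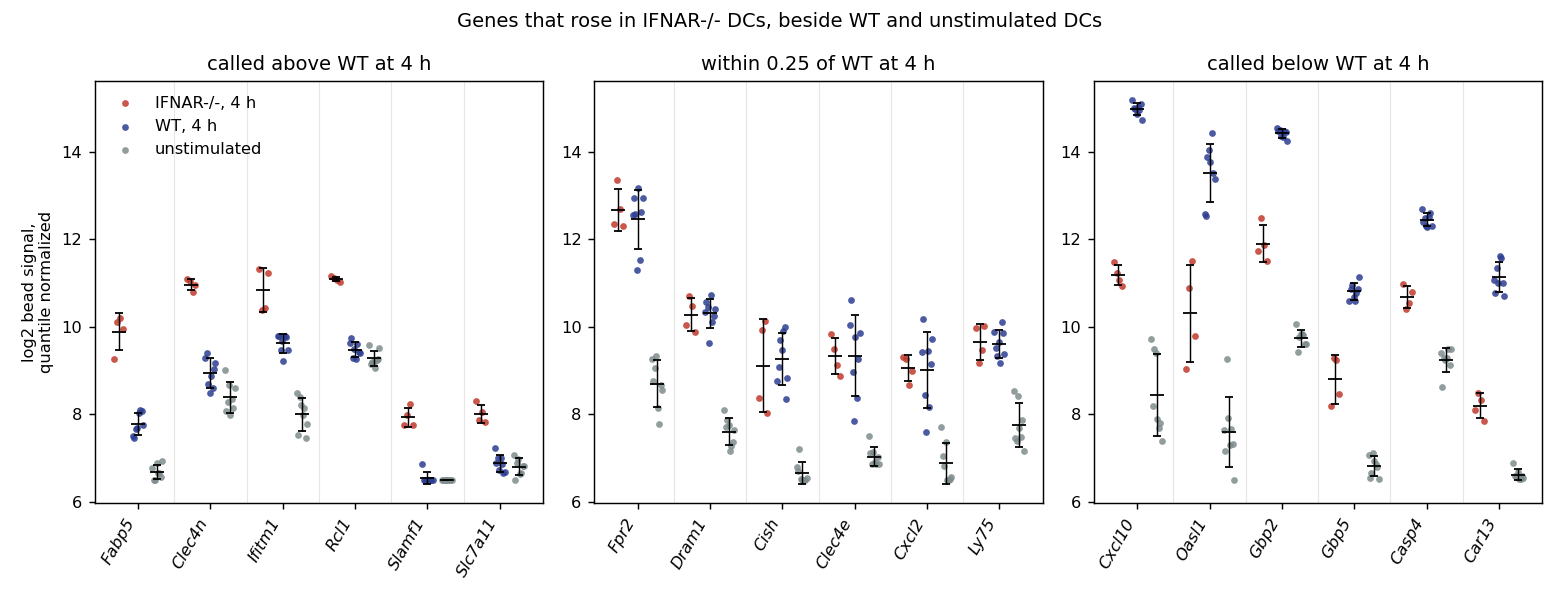
Log2 bead signal (vertical axis) in the 4 IFNAR-/- samples and the 8 WT samples taken 4 h after poly IC and in the 8 unstimulated samples, for 6 genes each that were higher than in WT DCs, within 0.25 of WT DCs, or lower than in WT DCs. Points are samples, and bars give the mean ± SD. Rcl1 lies at 11.03 to 11.15 in IFNAR-/- DCs, above all WT samples, and Cxcl10 at 10.93 to 11.47, between WT and unstimulated DCs.

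The 20 rises that were lower in IFNAR-/- DCs than in WT DCs were led by Cxcl10, at 14.72 to 15.18 (median 14.98) in WT DCs, a difference of -3.80 ± 0.38 (adjusted p = 5.24e-09). Oasl1 was at 12.53 to 14.43 in WT DCs (difference -3.21 ± 0.45), and Gbp2 at 14.26 to 14.54 (-2.52 ± 0.20). Gbp5 differed by -2.01 ± 0.24, Casp4 by -1.77 ± 0.23 and Cxcl9 by -1.24 ± 0.20. Car13, a carbonic anhydrase gene, was at 8.10, 8.50, 8.33 and 7.85 in IFNAR-/- DCs, against 10.69 to 11.62 (median 11.03) in WT DCs and 6.52 to 6.89 (median 6.58) in unstimulated DCs. Each of these genes thus held an intermediate level, above unstimulated and below WT samples, apart from the overlap of 1 Oasl1 sample. Over the antiviral list, 37 of 41 measured genes were lower in IFNAR-/- DCs than in WT DCs and 1, Ifitm1, was higher. Cd40 differed by -0.90 ± 0.16 (adjusted p = 5.13e-05), under the 2-fold limit.

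The 20 rises that were higher in IFNAR-/- DCs than in WT DCs included Fabp5, at 9.27, 10.11, 10.21 and 9.95 in IFNAR-/- DCs, against 7.46 to 8.09 (median 7.73) in WT DCs and 6.49 to 6.93 (median 6.65) in unstimulated DCs. Its difference from WT DCs was 2.10 ± 0.21 (adjusted p = 8.92e-09) and from PRR-/- DCs 2.27 ± 0.25. Clec4n was at 11.08, 11.04, 10.78 and 10.96, against 8.48 to 9.40 (median 8.95) in WT DCs (2.02 ± 0.22). Both genes lay above every sample of the other groups at 4 h. Rcl1, a factor of ribosomal RNA processing, had the narrowest values, 11.15, 11.11, 11.08 and 11.03 in IFNAR-/- DCs, against 9.26 to 9.74 (median 9.46) in WT DCs, 8.96 to 9.45 in PRR-/- DCs and 9.06 to 9.58 (median 9.23) in unstimulated DCs. The difference from WT DCs was 1.61 ± 0.10 (adjusted p = 2.11e-13). Ifitm1 was at 9.21 to 9.80 (median 9.72) in WT DCs (difference 1.22 ± 0.27, adjusted p = 0.000846), against the order of the other antiviral genes. Slc7a11 was at 8.29, 7.88, 8.04 and 7.81 in IFNAR-/- DCs, against 6.65 to 7.23 (median 6.88) in WT DCs and 6.49 to 7.07 (median 6.82) in unstimulated DCs. Slamf1 and Ccl17 were at or near background in most WT samples (medians 6.49 and 6.49), with differences of 1.39 ± 0.09 and 2.12 ± 0.32. Slamf1 and Gpr84, Neurl1a and Mmp13, these last named after their values were seen, were the 4 rises undetected on every unstimulated array.

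For Uck2, a uridine-cytidine kinase of pyrimidine salvage, the genotypes lay on opposite sides of unstimulated DCs. It was at 12.08, 12.20, 12.24 and 12.32 in IFNAR-/- DCs, against 9.87 to 10.48 (median 10.37) in WT DCs and 10.63 to 11.70 (median 11.09) in unstimulated DCs. IFNAR-/- samples lay above and WT samples below all unstimulated ones, and the difference from WT DCs was 1.94 ± 0.16. The rise over unstimulated DCs was 1.09 ± 0.16 and fell under 2-fold with the sample number as a block (0.76). Chst7, a sulfotransferase gene, was at 9.46, 10.81, 10.90 and 9.75, against 7.77 to 9.39 (median 8.57) in WT DCs and 7.69 to 8.71 (median 8.16) in unstimulated DCs, and its call against unstimulated DCs was lost with the block (2.08, adjusted p = 0.0805). The calcium channel gene Ryr3 (1.58 ± 0.31), Lad1 (1.47 ± 0.20), Bcas1 (1.72 ± 0.28) and Creld2, an endoplasmic reticulum stress gene (1.01 ± 0.13), were also higher than in WT DCs. Against unstimulated DCs the calls of Ryr3 (1.27) and Lad1 (0.98) were lost with the block, and leaving out 1 sample ended those of Lad1 (IFNAR-/- sample 4, 0.91) and Creld2 (unstimulated sample 4, 0.99). The difference of Creld2 from WT DCs fell under 2-fold without IFNAR-/- sample 4 (0.98) or 5 (0.95) and with the sample number as a random block (0.999). Bcas1 rose by 1.22 over all unstimulated samples, which were at 7.56 to 8.00 in samples 1-2 to 5 and at 8.56 to 9.36 in samples 6 to 9, and with samples 6 to 9 alone, chosen after the values were seen, its change was 0.69 and not called.

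PRR-/- DCs, which have IFNAR but not the receptors for poly IC, gave a second comparison with 4 against 4 samples. Of the 147 rises, 19 were higher and 23 lower in IFNAR-/- DCs than in PRR-/- DCs, where 1.18% of all genes were higher and 3.91% lower, and of the 137 falls 23 were lower and none higher. The choice of genes through the same IFNAR-/- samples favours higher values than in PRR-/- DCs among rises and lower ones among falls. Cxcl10 differed by -3.78 ± 0.44 and Rcl1 by 1.85 ± 0.11. Hmox1 was at 8.81 to 10.20 in IFNAR-/- DCs, against 10.40 to 11.29 in PRR-/- DCs (difference -1.40 ± 0.30, adjusted p = 0.000987), whereas it differed from WT DCs by -0.13 ± 0.26.

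Of the 137 falls, 123 were not called against WT DCs, 14 were lower in IFNAR-/- DCs and none was higher, and 57 lay within 0.25 of WT DCs. Their median change was -1.21 in IFNAR-/- DCs and -1.01 in WT DCs. The falls were chosen as low in the IFNAR-/- samples, which favours lower values there than in WT DCs. Ypel3, of a family of small zinc-binding proteins that restrain growth, was at 10.37, 10.24, 9.79 and 10.17 in IFNAR-/- DCs, against 11.79 to 12.48 (median 12.28) in unstimulated DCs (fell by 2.08, SE 0.29, adjusted p = 4.9e-06), and it was at 9.30 to 10.61 in WT DCs. Cyp27a1, a sterol hydroxylase of oxysterol and bile acid synthesis, was at 10.57, 10.86, 10.90 and 10.87, against 12.24 to 12.94 (median 12.58). Ramp1, which forms the receptor for the neuropeptide CGRP, was at 8.20, 7.93, 7.81 and 8.13, against 9.57 to 10.37 (median 9.75). None of the 3 genes overlapped between the groups. Tpcn1, an ion channel of endosomes and lysosomes, fell by 1.70, St3gal5, a ganglioside synthase, by 1.63, and Hes1, a target of Notch signalling, by 1.63. Notch4 fell by 1.65, but with the mean of all its probes the change was -0.94 and not called. The phospholipase family member Pld4, the membrane protein gene Plxdc1 and BC028528 fell by 1.57, 1.59 and 1.63.

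Genes that mark DC subsets were among the falls. Of 14 measured markers of cDC1, the cross-presenting DCs, 4 fell and 1 (Ly75) rose, with a median of -0.27. Irf8, the transcription factor on which cDC1 depend, was at 9.59, 10.50, 10.86 and 11.10 in IFNAR-/- DCs, against 11.02 to 12.81 (median 12.00) in unstimulated DCs, so that sample 5 overlapped (fell by 1.39, SE 0.35). Rab7b, a small GTPase of the endosomal pathway, was at 9.20, 8.57, 9.01 and 9.35, against 10.21 to 10.98 (median 10.46). Xcr1, the chemokine receptor of cDC1, was at 7.24, 6.75, 7.23 and 7.90, against 7.86 to 9.27 (median 8.25), and its call was lost without IFNAR-/- sample 3 (-0.95). The lysosomal thioesterase gene Ppt1 fell by 1.36, a call lost without IFNAR-/- sample 3, 4 or 5 or unstimulated sample 1-2, 3, 5, 6 or 8 (-1.5 to -1.10). Batf3 and Clec9a, 2 further markers of the list, did not pass the test (-0.22 and -0.28). The summed signal of the list was 7435 to 12609 units in IFNAR-/- samples, against 12116 to 25748 units in unstimulated samples, with little overlap. Of 15 measured cDC2 markers, Cd209a, a relative of the lectin DC-SIGN, fell to 8.15, 8.25, 7.99 and 8.63 in IFNAR-/- DCs, against 9.32 to 10.40 (median 9.81), and the transcription factor gene Zeb2 rose by 1.12 ± 0.25, with a summed signal of 11624 to 13324 units, against 9566 to 17882 units. The call of Zeb2 was lost with the block (1.56, adjusted p = 0.0595), with median scaling and without unstimulated sample 3 (0.95).

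Other falls concerned signalling and regulators. Of 28 immediate early and AP-1 genes, Fosb, Dusp6 and Jun fell and Batf and Nr4a3 rose. Fosb, a subunit of AP-1, was at 11.01, 11.78, 11.47 and 11.22 in IFNAR-/- DCs, against 12.01 to 13.21 (median 12.93), with no overlap. The phosphatase gene Dusp6, which switches off ERK, fell by 1.30 and Jun by 1.03, and Batf, an AP-1 partner of IRF4 and IRF8, rose by 1.11 ± 0.13. With the block the calls of Dusp6 (-0.95), Jun (-0.44) and Nr4a3 (0.31) were lost, and with median scaling that of Batf (0.88). With the mean of all probes, Dusp6 (-0.86) and Nr4a3 (0.50) were not called. Without 1 sample the calls of Jun (IFNAR-/- sample 4 or unstimulated sample 6, 7, 8 or 9, -0.95 to -0.93) and Nr4a3 (unstimulated sample 6, 8 or 9, 0.91 to 0.97) were lost. Cxcr3, the receptor for Cxcl9 and Cxcl10, was at 6.80, 6.53, 6.87 and 6.89 in IFNAR-/- DCs, against 7.99 to 8.60 (median 8.24) in unstimulated DCs and 6.98 to 7.35 in WT DCs, while both ligands rose. Ifngr1, which encodes the ligand-binding subunit for IFN-γ, was at 11.15, 10.67, 10.46 and 10.87, against 11.50 to 12.55 (median 11.98), and with the block its change was -0.98 and no longer called. Bcl11a, a transcription factor of plasmacytoid and other DCs, was at 9.79, 9.99, 9.58 and 10.36, against 10.71 to 11.56 (median 11.30).

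The 14 falls that were lower than in WT DCs included IFN-inducible genes. The labels name no unstimulated IFNAR-/- DCs, so for these genes poly IC and the genotype cannot be told apart. The largest differences were those of Pml (-4.10 ± 0.30), which organises antiviral nuclear bodies, Lgals3bp (-3.91 ± 0.33), BC147527 (-3.25 ± 0.16), Phf11a (-2.88 ± 0.20) and Samd9l (-2.85 ± 0.21). These 5 were called higher in WT DCs than in unstimulated DCs, where 4.80% of all genes were higher and 2.39% lower. BC147527 was at 8.02, 7.70, 7.27 and 7.74 in IFNAR-/- DCs, against 10.73 to 11.17 (median 10.87) in WT DCs and 8.56 to 9.25 (median 9.05) in unstimulated DCs. Samd9l was at 10.99, 11.08, 11.03 and 10.99 in IFNAR-/- DCs, against 13.59 to 14.11 in WT DCs and 11.18 to 12.49 (median 12.22) in unstimulated DCs. For both genes IFNAR-/- samples lay below and WT samples above all unstimulated samples. Pml was at 8.83, 8.88, 9.08 and 8.65 in IFNAR-/- DCs, against 12.73 to 13.20 in WT DCs and 8.19 to 11.27 (median 9.77) in unstimulated DCs, which spread widely. Ifi27 was at 8.97, 9.60, 9.56 and 9.46 in IFNAR-/- DCs, against 10.97 to 11.91 (median 11.65) in WT DCs and 9.36 to 12.29 (median 11.60) in unstimulated DCs, so that the medians of WT and unstimulated DCs lay close together (difference of IFNAR-/- from WT DCs -2.14 ± 0.38). Unstimulated sample 9, at 9.36, lay within the IFNAR-/- range of Ifi27. Against unstimulated DCs, calls were lost without 1 sample for Pml (IFNAR-/- sample 1-2 or 5 or unstimulated sample 1-2, 4 or 5, -1.0 to -0.81), Phf11a (IFNAR-/- sample 1-2 or unstimulated sample 4, 5 or 7, -1.0 to -0.82) and Lgals3bp (unstimulated sample 4, -0.95). With unstimulated samples 6 to 9 alone, chosen after the values were seen, Pml (-0.41), Lgals3bp (-0.62), Phf11a (-0.92) and Samd9l (-0.87) were not called lower, and with the mean of all probes Pml (-0.33) and Phf11a (-0.95) were not called.

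The levels of 3 of the largest falls formed 2 ranges among the unstimulated samples. Klra17, of the Ly49 receptor family and a marker of plasmacytoid DCs, was at 7.77, 8.00, 7.80 and 7.20 in IFNAR-/- DCs. In unstimulated samples 1-2, 3, 4, 5 and 8 it was at 11.73, 11.07, 11.85, 11.44 and 10.81, and in samples 6, 7 and 9 at 8.37, 8.24 and 8.33. Hebp1, a heme-binding protein gene, was at 8.08, 7.38, 7.35 and 7.69 in IFNAR-/- DCs, against 11.92, 11.16, 10.72, 11.82 and 10.48 in unstimulated samples 1-2, 3, 4, 5 and 8 and 7.27, 7.04 and 7.67 in samples 6, 7 and 9. The same unstimulated samples were low for both genes. St6galnac2, a sialyltransferase gene, was detected on no IFNAR-/- array, against 9.55, 9.11, 9.62, 9.69 and 9.30 in unstimulated samples 1-2, 3, 4, 5 and 8 and 6.49 in samples 6, 7 and 9, a fall of at least 3.61-fold. PRR-/- samples were at 10.24 to 10.80 for Klra17 and 9.90 to 11.16 for Hebp1, and WT samples at 8.01 to 8.75 and 6.89 to 8.26. St6galnac2 was at 9.45, 9.05, 6.49 and 9.51 in PRR-/- samples 1-2, 3, 4 and 5, so that sample 4 was at background for this gene alone of the 3, and at 6.49 in all WT samples. With unstimulated samples 6 to 9 alone, chosen after the values were seen, Hebp1 and St6galnac2 were not called (-0.49 and -0.70). In a fit of only these 2 groups none of the 3 was called, and without IFNAR-/- sample 3, 4 or 5 the call of Hebp1 was lost (-2.16 to -2.04). What sets the unstimulated samples apart in these genes cannot be told from the labels, and whether the Klra17 probe also binds related Ly49 transcripts was not tested.

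**Figure D3:**
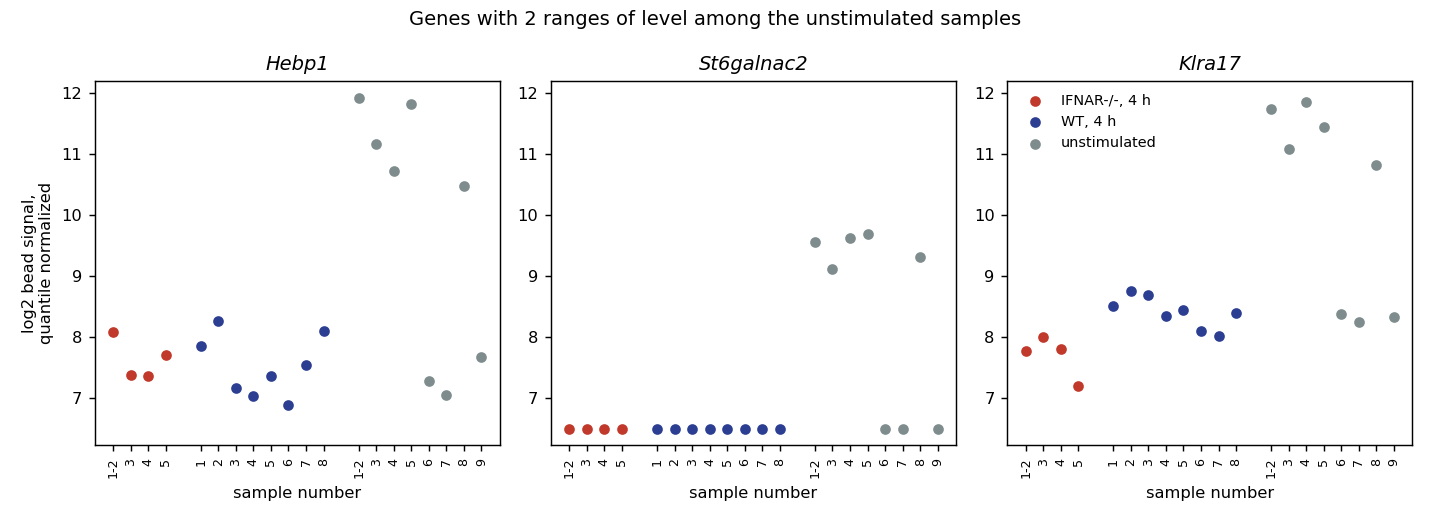
Log2 bead signal (vertical axis) of Hebp1, St6galnac2 and Klra17 in each IFNAR-/- and WT sample at 4 h and each unstimulated sample, by sample number (horizontal axis) within its group. The 3 genes are low in all IFNAR-/- and WT samples and in unstimulated samples 6, 7 and 9, and high in the other 5 unstimulated samples.

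At 14 h, 3 IFNAR-/- samples were set against the 4 taken at 4 h. Of the 147 rises, 22 had moved back toward unstimulated levels, 7 had moved further away and 118 were not called, where 0.541% of all genes were lower and 1.42% higher at 14 h. Of the 137 falls, 20 had moved back, 1 (Cd209a) had moved further and 116 were not called. Rises and falls were both chosen on these 4 h samples, which by itself favours moves back. Ifitm1 had a median of 8.07 in unstimulated DCs, was at 10.39 to 11.33 at 4 h, and was at 7.60 to 8.99 (median 7.87) at 14 h, a difference of -2.69 ± 0.33 between the times (adjusted p = 1.27e-06). Cxcl9 had a median of 12.32 in unstimulated DCs, was at 13.92 to 14.29 at 4 h and at 11.36 to 11.83 at 14 h. Ly75, Cyp7b1, Bcl3 and Cd40 likewise were lower at 14 h, by -2.28 ± 0.38, -2.13 ± 0.35, -1.38 ± 0.18 and -1.36 ± 0.20. At 14 h Ifitm1, Cxcl9, Ly75, Cyp7b1, Bcl3 and Cd40 all differed from unstimulated DCs by less than 2-fold and were not called. Cxcl9 averaged 11.56 in IFNAR-/- DCs at 14 h, against 12.35 in unstimulated DCs, and Bcl3 8.32, against 7.75. Fpr2 was at 13.11 to 13.53 at 14 h, and its difference from 4 h did not pass the test (0.67 ± 0.42, adjusted p = 0.438).

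Mmp14, a membrane-bound matrix metalloproteinase gene, and S100a9 had moved further up at 14 h. Mmp14 was at 7.38 to 8.61 (median 8.11) in unstimulated DCs, at 9.94, 10.62, 10.07 and 9.87 at 4 h, and at 11.33 to 12.14 (median 11.58) at 14 h. S100a9 was at 9.15 to 11.69 at 14 h, with 1 sample far above the other two. Among the falls, Tpcn1 had a median of 8.76 in unstimulated DCs, was at 6.89 to 7.50 at 4 h and at 8.61 to 9.11 at 14 h. Mmp9 (1.64 ± 0.35) and the lysosomal lipase gene Lipa (1.68 ± 0.37) were higher at 14 h than at 4 h as well. Cd209a, at 7.99 to 8.63 at 4 h, was at 6.50 to 7.68 at 14 h. At 4 h the calls of Mmp9 (-0.89) and Lipa (-0.87) against unstimulated DCs were lost with the block, and that of Lipa without IFNAR-/- sample 1-2 (-0.89).

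**Figure D4:**
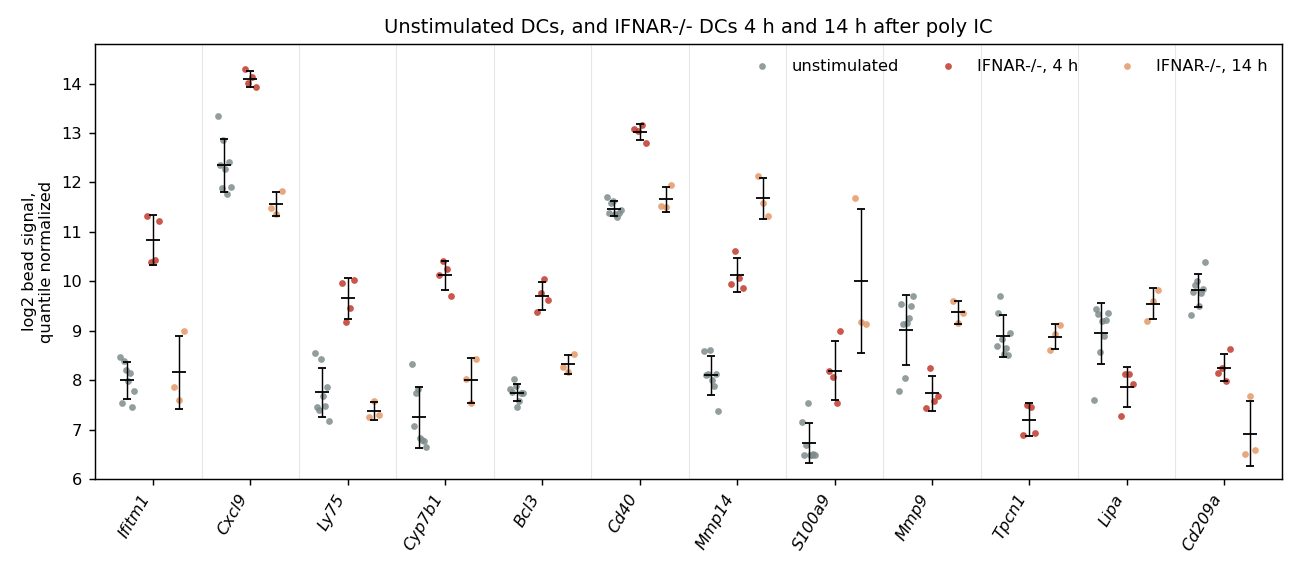
Log2 bead signal (vertical axis) of 12 genes in the 8 unstimulated samples, the 4 IFNAR-/- samples at 4 h and the 3 IFNAR-/- samples at 14 h after poly IC. Points are samples, and bars give the mean ± SD. Ifitm1 and Cxcl9 peak at 4 h, Mmp14 rises at both times, and Tpcn1 is low at 4 h only.

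Over 38 gene lists, 702 distinct genes were measured and 80 were called, 62 higher and 18 lower, while 204 called genes belonged to no list. In 10 lists no member was called. These were the type I IFN genes, MHC class I (22 measured) and class II (19) with peptide loading, the respiratory chain (59), cytosolic ribosomal proteins (39), tRNA synthetases and nucleotide synthesis (26), cholesterol synthesis (16), chaperones (13) and the T cell and NK cell markers (11 and 9). The MHC class II gene H2-Ab1 averaged 15.67 in IFNAR-/- DCs, against 15.63 in unstimulated DCs, and the peptide transporter gene Tap1 averaged 9.54, against 9.39. Both are named as textbook genes of antigen presentation, after their values were seen. Of 21 glycolysis genes, Slc2a1, which encodes the glucose transporter GLUT1, rose by 1.20 ± 0.17, and with the block its change was 0.91 and not called.

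Markers of other cells of the spleen moved with the comparison in part. Of 19 measured red pulp macrophage markers, Hmox1 and the transcription factor gene Spic rose and the transferrin gene Trf fell, with a summed signal of 11362 to 16381 units in IFNAR-/- samples, against 9630 to 14947 units in unstimulated samples, and Cd163, Cd5l and Siglec1 were detected on no IFNAR-/- array. With unstimulated samples 6 to 9 alone, chosen after the values were seen, Trf (-0.75) was not called. Spic was at 10.89, 10.83, 10.61 and 10.80 in IFNAR-/- DCs, against 8.94 to 9.55 (median 9.15). Of 8 erythroid and platelet markers, the globin gene Hba-a1 rose by 1.69 ± 0.44 (not called with the block, 1.33), with a summed signal of 1734 to 3353 units, against 989 to 2003 units. Of 8 B cell markers, Cd22 fell by 1.06, with a summed signal of 1051 to 1243 units, against 1798 to 2017 units, and Cd79a and Pax5 were detected in neither group. The call of Cd22 was lost with the block (-0.73) and without IFNAR-/- sample 1-2 or 4 or unstimulated sample 4 or 7 (-0.99 to -0.95). Of 11 plasmacytoid DC markers 1, Klra17, fell (median -0.49), with a summed signal of 2395 to 3100 units, against 3208 to 9746 units. The part of these cells in the changes above was not tested.

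**Figure D5:**
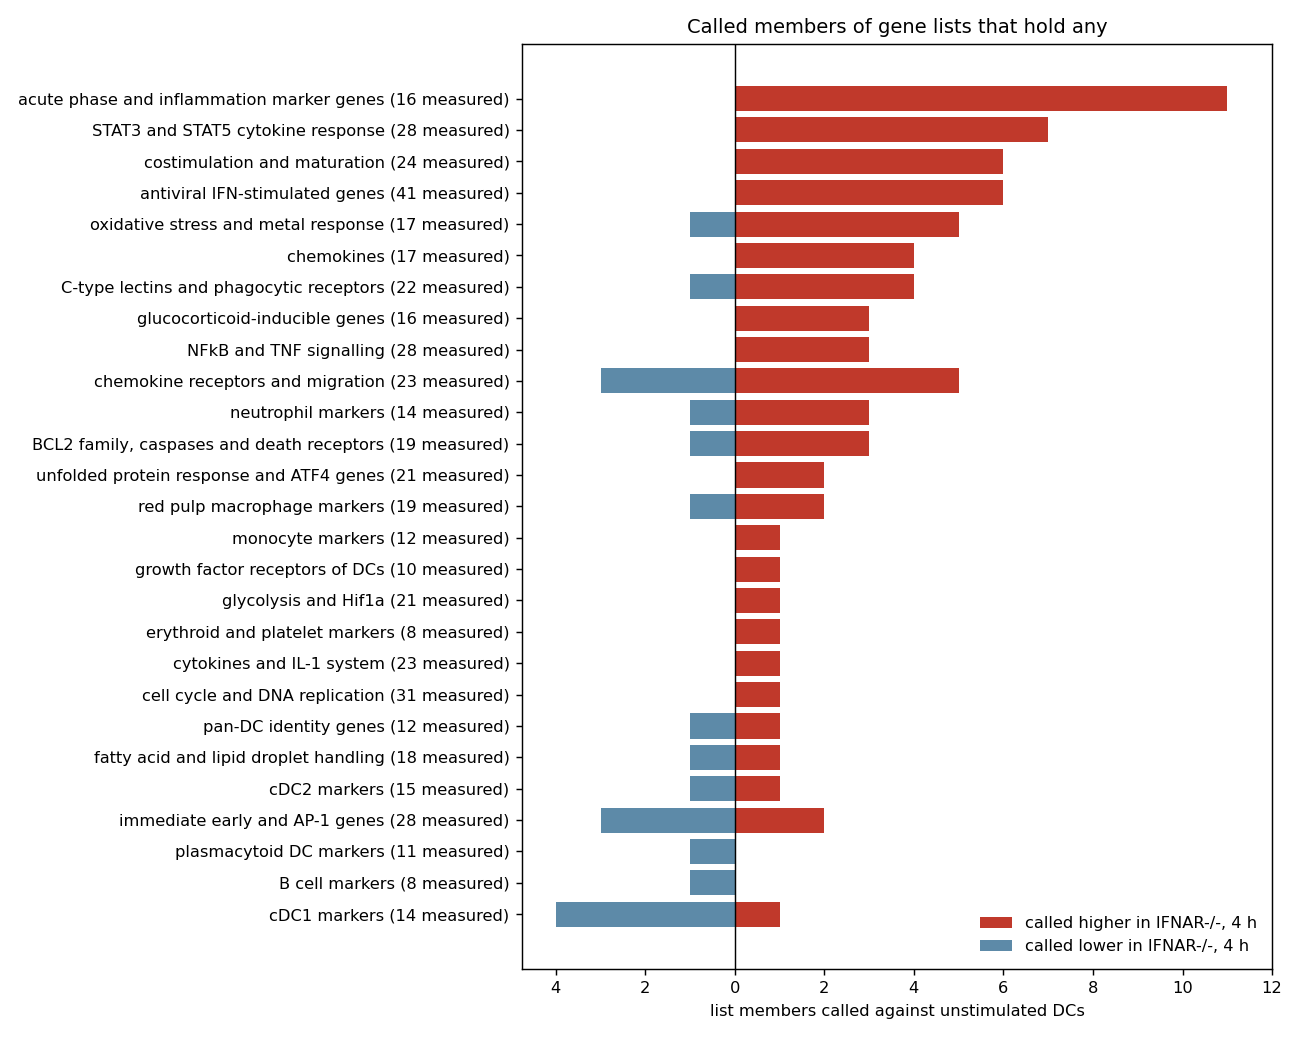
Number of list members called higher (bars to the right) or lower (bars to the left) in IFNAR-/- DCs 4 h after poly IC against unstimulated DCs, for gene lists with any called member, 1 list being left out. The horizontal axis counts genes, and the number measured stands beside each list name. The acute phase and inflammation list has the longest bar, 11 of 16 members, and the cDC1 list the longest to the left, 4 of 14.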

How the data were processed

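Total RNA of sorted DCs was hybridised to Illumina MouseRef-8 v2 arrays. The authors deposited bead intensity values before normalization, exported from BeadStudio (version not given in the sources used here). The deposited detection p-value of each probe ranks its intensity among negative control beads. The authors also deposited a log2 table made in GeneSpring, which correlated at 0.970 to 0.991 with the values made here and served as an alternative.

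Signals under an array's background (the lowest signal with detection p under 0.05) were raised to it, log2 transformed and quantile normalized over 36 arrays in R 4.3.3 with limma 3.58.1. Of 25697 probes, 14202 were detected on at least 3 arrays and 13328 of these had a gene. The probe with the highest mean stood for each of 9606 genes. Arrays 1 and 2 of 3 groups differed by a median of 0.0739 to 0.0820 log2 units, against 0.108 to 0.429 in 99 other pairs, which left 33 samples. lmFit and eBayes fitted all groups, with Benjamini-Hochberg adjustment. Arrays carry no read depth, and their number limits the precision. On simulated data for IFNAR-/- at 4 h against unstimulated DCs (9606 genes, 100 changed at each size), 98% of genes changed by 1.5 log2 units and 100% of those changed by 2.5 were recovered, with 0 false calls. The simulated samples varied independently of each other. The result therefore does not cover real samples that deviate together by number.

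Same-numbered samples of both groups deviated together (r = 0.317 to 0.741, against -0.499 to 0.318 for other numbers), so the label numbers may pair them. This rests on the data, as no label states it. The main fit had no term for the number, so its SEs and p-values ignore such a pairing. A block on the number was an alternative. Named genes were the 15 largest rises and falls, the 10 with the largest differences from WT DCs in each direction, up to 6 called members per list, and check genes. The members, gene lists and rules were chosen with earlier results of these data known. Symbols came from the platform annotation, updated through Entrez identifiers. Promoters came from RefSeq's annotation of GRCm38.p6. One gene list and the item it is named for are not reported here.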

Additional observations from a re-analysis of the deposited data

Results flagged for a closer look

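In 12 of 240 groups of samples of the named genes, 1 sample lay far from the others by Dixon's criterion. Groups with all samples at the same level could not be tested and genes vary together, so no share expected by chance is given. Among the IFNAR-/- samples at 4 h, sample 1-2 was the lowest for Cyp27a1 (10.57) and Nfkb2 (8.90), and sample 4 the highest for the IFN genes Ifna2 (6.62) and Ifnz (6.735). For both IFN genes the other IFNAR-/- samples at 4 h lay at background. Among unstimulated samples, sample 1-2 was the highest for Car13 (6.89) and Clec4e (7.50), sample 4 for Cish (7.21) and Ifne (6.53), and sample 7 for Ifnz (6.56). Sample 3 was the lowest for Casp4 (8.62), and sample 9 for Lgals3bp (7.51) and Samd9l (11.18).

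The 2 times after poly IC differed in IFNAR-/- DCs for 25 of the 120 named genes, by limma's test of the 14 h minus 4 h difference. At 14 h, 16 genes were lower. These were Ifitm1 (-2.69), Cxcl9 (-2.53), Ly75 (-2.28), Cyp7b1 (-2.13), Ccl17 (-1.47), Fabp5 (-1.42), Rcl1 (-1.40), Bcl3 (-1.38), Cd40 (-1.36), Cd209a (-1.33), Lad1 (-1.20), Mt1 (-1.19), Chst7 (-1.185), Il21r (-1.17), Slamf1 (-1.14) and Bcl2l11 (-1.04). The other 9 were higher, namely Fosb (1.19), Pld4 (1.45), Mmp14 (1.56), Dusp6 (1.56), Mmp9 (1.64), Lipa (1.68), Tpcn1 (1.68), Lgals3bp (1.72) and S100a9 (1.81). All values are log2 differences.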

How the results depend on the processing

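The count of 284 called genes (147 higher, 137 lower) ranged from 248 to 293 with the authors' processed values, with other filters on dim probes, with the mean of all probes, with all 36 arrays, with only these 2 groups in the fit, with the methods' t-test or with adjusted p under 0.01. It was 504 with neqc (227 higher and 277 lower, and 32 list members lower), and median scaling gave 223 lower. Without a fold limit it was 1730 (670 higher, 1060 lower; 119 list members higher, 65 lower; 36 rises above and 38 falls below WT DCs), and at 1.5-fold 893 (369 higher, 524 lower; 102 and 50 list members; 32 rises above and 33 falls below WT DCs). Leaving out 1 sample gave 243 to 331 genes, 130 to 179 higher and 113 to 152 lower, 55 to 68 list members higher and 15 to 21 lower, 19 to 21 rises below and 19 to 21 above WT DCs, and 13 to 14 falls below WT DCs. With the sample number as a block it was 254 (117 higher, 137 lower), of which 188 were shared with the fit without it, and 75 of 106 named called genes kept their call. Beside the call of Id2 and the calls whose blocked values stand in the report, the block ended no call of a named gene printed there. Median scaling also ended the calls of Ccr7 (0.82), Fkbp5 (0.82), Ifi47 (0.90), Lad1 (0.95), Nfkb2 (0.84), Nr4a3 (0.86), Ppt1 (-1.40), Ryr3 (0.98), Creld2 (0.85), Slc2a1 (0.96), Uck2 (0.91) and Zeb2 (0.90). The cause was not tested. No result reversed under the alternatives run, which cover the comparisons with unstimulated and WT DCs. The fixed block and the methods' t-test were run for the comparison with unstimulated DCs alone, no WT sample was left out, and the results against PRR-/- DCs and between 4 h and 14 h were recomputed under no alternative. With only unstimulated samples 1-2 to 5 or only 6 to 9, both chosen after seeing the data, 258 and 386 genes were called. Dim genes near background have understated changes.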
